A study of Mus musculus with 18 samples.

Results

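The insulin-like growth factor (IGF) axis was followed through mouse mammary epithelial cells, mammary tumour cells and their co-cultures. The genes described are Igf1, Igf2, Igf1r, Igf2r, Igfbp2, Igfbp3, Igfbp4, Igfbp5, Igfbp6 and Igfbp7, chosen by symbol, and each was read by the single-gene probe set with the highest mean level. All 10 were measured, out of 19938 genes on the array. The study asked how tumour cells change when grown among normal mammary cells. RNA was hybridised to 18 whole-transcript arrays, 3 in each of 6 groups. Comma-D is a line from normal mouse mammary epithelium, labelled normal, and was grown in DMEM/F12 with 2% serum, 10 ug/ml insulin and 5 ng/ml EGF. MMTV-neu is a line of mouse mammary tumour cells in which the MMTV promoter drives a neu (erbB2) oncogene. It is labelled cancer and was grown in DMEM with 10% serum. Co-cultures of both lines at 1:50 or 1:1 were grown in the Comma-D medium and separated on magnetic beads, through an antibody to erbB2, into erbB2-positive and erbB2-negative cells. Both erbB2-negative fractions are labelled normal, the 1:1 erbB2-positive fraction is labelled cancer, and the 1:50 erbB2-positive fraction is labelled redirected. The titles do not settle which line made up the 50 parts. The antibody step is described for the samples in general, without saying whether the unmixed lines passed the column. Nothing says that the replicates were separate cultures, so p-values measure only the spread between arrays.

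IGF-I and IGF-II are secreted growth factors that signal through the IGF-1 receptor, a tyrosine kinase of the insulin receptor family, to growth and survival pathways. The IGF-2 receptor binds IGF-II and carries it to lysosomes without a kinase of its own. The IGF binding proteins hold the ligands outside the cell and can release or withhold them, and IGFBP-7 is a related protein with weak affinity for the ligands. In the mammary gland the axis is known for its part in ductal growth, and IGFBP-5 for its rise when the gland involutes.

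Several facts of the arrays bear on every comparison with MMTV-neu. The spread of log2 levels within an array averaged 1.98 in Comma-D and 1.53 in MMTV-neu, with the 1:1 erbB2-positive arrays at 1.66 and the other fractions from 1.85 to 1.99. The 4985 genes with the highest Comma-D levels had a median difference of -1.37 (log2, MMTV-neu minus Comma-D), and 7 of the 10 IGF genes are among them (all but Igf1, Igfbp3 and Igfbp6). Actb, the cytoplasmic actin often used as a reference, averaged 13.30 on the Comma-D arrays, 9.36 for MMTV-neu and 12.69 for the 1:1 erbB2-positive fraction. Epcam, an epithelial adhesion gene, averaged 9.53 for Comma-D and 5.88 for MMTV-neu, below the mean array median of 6.46 there, whereas Krt8, a luminal keratin, was at 7.41 and 11.34. In the positive and negative fractions Krt8 averaged 10.37 and 7.90 at 1:50 and 11.28 and 10.76 at 1:1. Its 1:1 erbB2-negative mean thus lay nearer to MMTV-neu than to Comma-D. Krt18, another luminal keratin, went the other way between the lines, at 9.34 in Comma-D and 8.57 in MMTV-neu. The purity of the fractions was not tested. Erbb2 itself did not separate the labelled fractions, with means of 8.22 and 8.27 in the 1:50 positive and negative cells and 7.87 and 7.80 at 1:1. The neu oncogene of this model is of rat origin, and whether the mouse probes read it was not tested. Centring the arrays used 8 of 11 listed reference genes. It raised the median difference of all genes (MMTV-neu minus Comma-D) by 1.30, from 0.40 to 1.70, further from zero. Quantile normalization lowered that median to 0.23. Which scaling is nearer to the true levels was not tested. Values after centring or quantile normalization are therefore given where a call or its direction changed. In these bulk samples, fewer cells of a type and less RNA per cell cannot be told apart, and line and medium cannot be told apart in MMTV-neu.

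**Figure D1:**
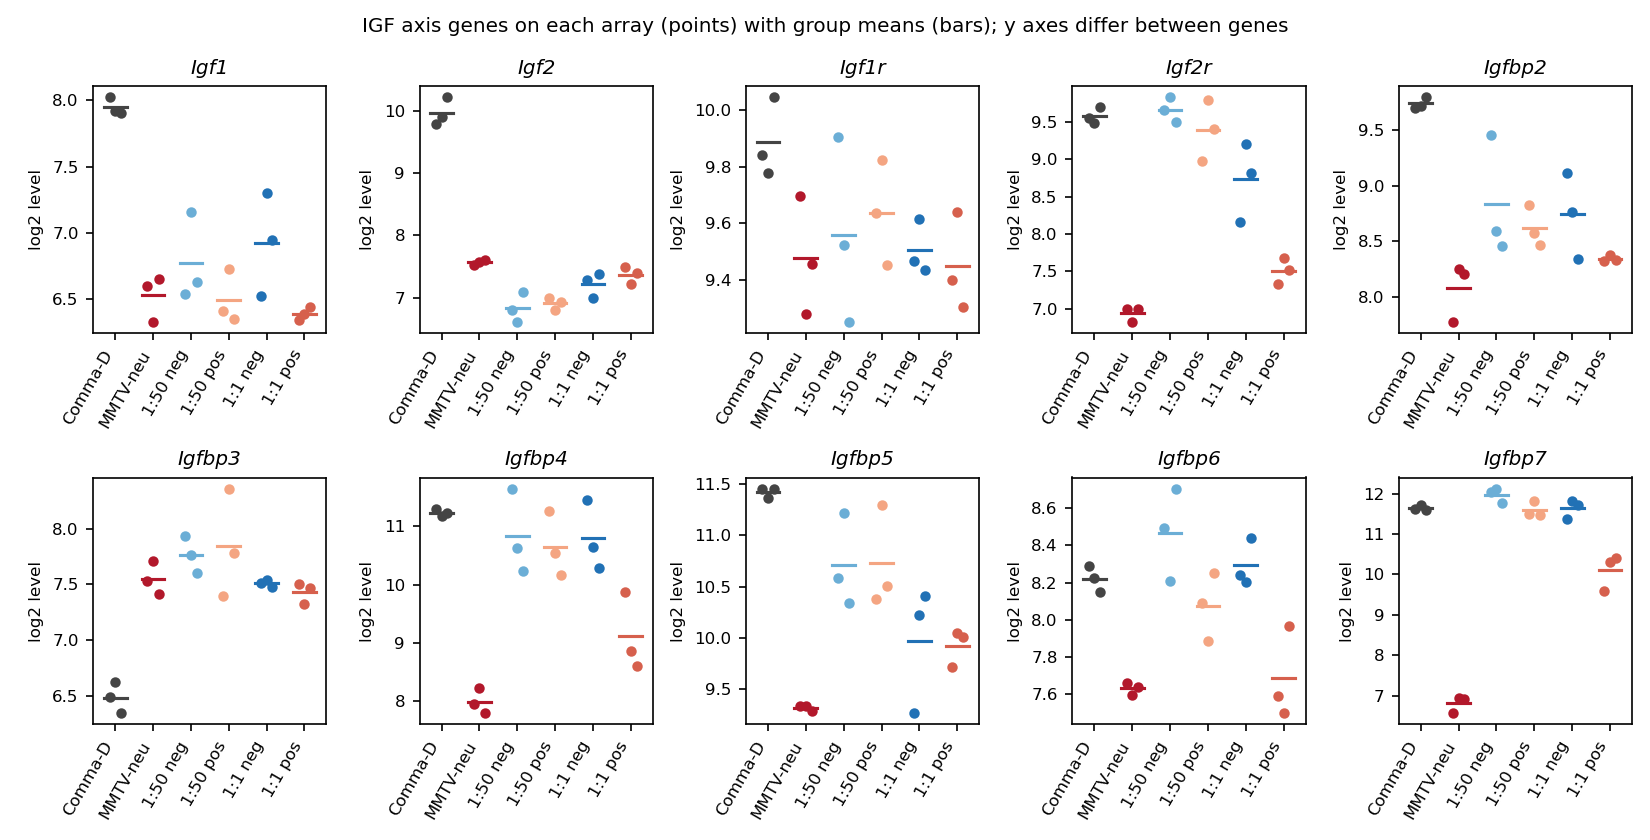
Log2 level of each IGF axis gene on every array (points) with the group mean (bar). The 6 groups run along the horizontal axis, and each panel has its own vertical scale. Igf1 and Igf2 are highest in Comma-D and Igfbp3 lowest there, while Igfbp7 is lowest in MMTV-neu, between 6.56 and 6.93.

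On the deposited scale both ligand genes were higher in Comma-D cells than in every other group. Igf2 fell 8.34-fold in the 1:50 erbB2-positive fraction and 8.77-fold in the 1:50 erbB2-negative fraction against Comma-D. The co-cultures were grown in the Comma-D medium, so the stated medium was the same on both sides. The part of co-culture or sorting in this fall was not tested. Igf2 (probe set 10569344) measured 9.79, 9.90 and 10.22 on the Comma-D arrays and 7.52, 7.58 and 7.60 on the MMTV-neu arrays. In the 1:50 co-culture it was 7.0, 6.80 and 6.93 in erbB2-positive cells and 6.80, 6.61 and 7.09 in erbB2-negative cells. At 1:1 it was 7.49, 7.21 and 7.39 in erbB2-positive cells and 7.28, 6.99 and 7.38 in erbB2-negative cells. No array outside Comma-D came within 2 log2 units of the lowest Comma-D array, and the 1:50 fractions lay below MMTV-neu on every array. The difference from Comma-D was -2.41 ± 0.14 in MMTV-neu (log2, SE; limma adjusted p = 3.17e-10), -3.06 ± 0.14 in the 1:50 erbB2-positive fraction (adjusted p = 6.99e-10) and -3.13 ± 0.14 in the 1:50 erbB2-negative fraction (adjusted p = 4.76e-10). At 1:1 it was -2.60 in erbB2-positive cells and -2.75 in erbB2-negative cells. The MMTV-neu difference ranged from -2.50 to -1.11 over 26 alternatives, the smallest after centring, and passed in all of them. Across the alternatives tried, the 1:50 erbB2-positive difference ranged from -3.15 to -2.63 and passed in all 27. The 1:50 erbB2-positive fraction was also below MMTV-neu itself, by -0.65 ± 0.14 (adjusted p = 3.6e-04), and this ranged from -1.69 to -0.60 over 26 alternatives.

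Igf1 (probe set 10365559) followed the same order of Comma-D against the rest, with a smaller difference. Its Comma-D arrays stood at 8.02, 7.92 and 7.90, and its MMTV-neu arrays at 6.60, 6.33 and 6.66. The erbB2-positive arrays read 6.41, 6.73 and 6.35 at 1:50 and 6.35, 6.39 and 6.45 at 1:1. The erbB2-negative arrays read 6.54, 7.16 and 6.63 at 1:50 and 6.52, 7.30 and 6.95 at 1:1, overlapping MMTV-neu in both cases. Against Comma-D, Igf1 changed by -1.45 ± 0.18 in the 1:50 erbB2-positive fraction (adjusted p = 8.73e-05), by -1.17 ± 0.18 in the 1:50 erbB2-negative fraction (adjusted p = 0.00132) and by -1.03 and -1.56 in the 1:1 negative and positive fractions. Its difference between MMTV-neu and Comma-D was -1.42 ± 0.18 (adjusted p = 1.47e-06) on the deposited scale, but -0.12 with an adjusted p of 0.572 after centring on reference genes. The 1:1 erbB2-positive fraction lay -0.53 ± 0.18 below its erbB2-negative partner (adjusted p = 0.0193); centring turned this to 0.11, and without the 1:1 erbB2-negative replicate 2 it was -0.34 with an adjusted p of 0.125. In the order of group means, the neighbours from the 1:1 erbB2-negative fraction down to the 1:1 erbB2-positive fraction overlapped in their array values.

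Some stromal markers moved with the ligands and others did not. Dcn, the matrix proteoglycan decorin made by fibroblasts, averaged 8.48 for Comma-D and between 5.06 and 5.78 in the other groups, under each group's mean array median. Pdgfra, a fibroblast receptor, averaged 10.65 in Comma-D, 7.05 in MMTV-neu and 8.34 and 8.72 in the 1:50 positive and negative fractions. Col1a1, the main collagen chain, averaged 9.66 in Comma-D, 9.88 in the 1:50 positive and 9.72 in the 1:50 negative fraction. Col1a2, another collagen chain, went the other way, with 6.54 in Comma-D, 7.20 and 7.06 in those fractions and 7.98 in MMTV-neu. Col3a1 averaged 7.37, 7.25, 7.10 and 7.79 in the same order, and Pdgfrb 10.84, 10.44, 10.86 and 7.14. Of 15 fibroblast and stromal markers, 10 were above the array median on each Comma-D array, 8 to 10 in MMTV-neu, 9 or 10 in the 1:50 and 1:1 negative and 1:50 positive fractions and 9 to 11 in the 1:1 erbB2-positive fraction. Their summed level was 13.53 to 13.59 in Comma-D, 13.14 to 13.64 in the 1:50 erbB2-positive fraction, 13.08 to 13.68 in the 1:50 erbB2-negative fraction, 12.83 to 13.40 in the 1:1 erbB2-negative fraction, 11.67 to 12.24 in the 1:1 erbB2-positive fraction and 11.11 to 11.21 in MMTV-neu. Against Comma-D, 1 of the 15 markers was called higher and 3 lower in each 1:50 fraction. Of all genes, 5.71% were called in the 1:50 erbB2-positive and 1.68% in the 1:50 erbB2-negative comparison. Their part in the Igf1 and Igf2 differences was not tested. The lists of 16 luminal, 14 basal, 10 endothelial, 10 leukocyte and 7 adipocyte markers had summed levels of 12.12 to 12.18, 13.80 to 13.81, 8.95 to 9.04, 9.71 to 9.80 and 8.27 to 8.34 in Comma-D, and of 12.37 to 12.46, 13.97 to 14.47, 9.03 to 9.33, 9.36 to 9.47 and 8.32 to 8.57 in the 1:50 erbB2-positive fraction.

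The promoters of the ligand genes are shown because both genes changed together between Comma-D and all co-culture fractions. Each sequence runs from 250 bases before to 50 bases after a start in RefSeq on GRCm38.p6, and all 10 IGF axis genes have an entry. Motifs were searched on both strands with the TATA box as TATAAA, the GC box as GGGCGG, the CCAAT box as CCAAT, the AP-1 site as TGANTCA and the E box as CACGTG, and matched letters are in capitals. Of 32851 promoters of this length, 13.6% hold the TATA letters, 35.7% the GC box, 37.4% CCAAT, 7.81% the AP-1 letters and 7.15% the E box. Igf1 lies on the plus strand at chr10:87860861-87861160, with CCAAT at -142 on the other strand and the AP-1 letters at -37. Igf2 has 4 starts in the table and lies on the minus strand, and the fourth, at chr7:142657447-142657746, is shown because it holds the most matches. These are GC boxes at -100 and -85 and CCAAT at -231 on the other strand. The probe set does not say which start was used.
Igf1: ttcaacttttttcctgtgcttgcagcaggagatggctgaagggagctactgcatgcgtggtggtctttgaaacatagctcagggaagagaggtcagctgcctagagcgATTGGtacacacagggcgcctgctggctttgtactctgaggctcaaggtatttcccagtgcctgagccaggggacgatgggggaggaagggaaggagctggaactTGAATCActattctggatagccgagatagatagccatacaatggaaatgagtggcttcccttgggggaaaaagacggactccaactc
Igf2: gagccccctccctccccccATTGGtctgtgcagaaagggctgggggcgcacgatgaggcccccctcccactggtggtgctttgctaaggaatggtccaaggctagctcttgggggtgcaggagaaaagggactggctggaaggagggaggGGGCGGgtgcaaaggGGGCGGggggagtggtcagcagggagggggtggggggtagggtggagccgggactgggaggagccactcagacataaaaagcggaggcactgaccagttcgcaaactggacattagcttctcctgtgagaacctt

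The 2 receptors behaved differently. Igf1r, which carries the mitogenic signal, varied little, while Igf2r, which clears IGF-II, was low in MMTV-neu and in the 1:1 erbB2-positive fraction. Igf1r (probe set 10554094) had Comma-D arrays at 9.84, 9.78 and 10.04 and MMTV-neu arrays at 9.70, 9.28 and 9.46. The fractions of the 1:50 co-culture spanned 9.25 to 9.90 and those of the 1:1 co-culture 9.31 to 9.64, so that neighbouring groups overlapped throughout the order of means. The range of its group means was 0.44 log2 units against a pooled SD of 0.20. On the deposited scale Igf1r was lower than Comma-D by -0.41 ± 0.16 in MMTV-neu (adjusted p = 0.0206) and by -0.44 ± 0.16 in the 1:1 erbB2-positive fraction (adjusted p = 0.0164), but both turned positive under centring (0.89 and 0.65) and under quantile normalization (0.70 and 0.43). The first also lost its call without MMTV-neu replicate 2 (-0.31, adjusted p = 0.0971) and without Comma-D replicate 3 (-0.33, adjusted p = 0.0874). In the 1:50 erbB2-positive fraction the difference from Comma-D was -0.25, with a 95% interval from -0.58 to 0.08, and 0.011 after centring.

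Igf2r (probe set 10447799) was read at 9.55, 9.49 and 9.70 in Comma-D and at 7.0, 6.83 and 6.99 in MMTV-neu. In erbB2-positive cells it was 8.98, 9.79 and 9.41 at 1:50 but 7.33, 7.68 and 7.51 at 1:1. In erbB2-negative cells it was 9.66, 9.83 and 9.49 at 1:50 and 8.17, 9.21 and 8.82 at 1:1. The 1:50 fractions overlapped Comma-D, the 1:1 erbB2-negative arrays lay below it, and the 1:1 erbB2-positive arrays lay between those and MMTV-neu without overlap. Igf2r was 6.24-fold lower in MMTV-neu than in Comma-D (-2.64 ± 0.22, adjusted p = 1.68e-08). It was 5.49-fold higher in the 1:50 erbB2-positive fraction than in MMTV-neu (2.46 ± 0.22, adjusted p = 7.57e-08) and 3.71-fold higher there than in the 1:1 erbB2-positive fraction (1.89 ± 0.22, adjusted p = 4.25e-06). These calls held in every alternative tried, with values from -2.69 to -1.34, from 1.42 to 2.66 and from 1.07 to 2.10. Against Comma-D, the 1:50 erbB2-positive fraction differed by -0.19, with an interval from -0.64 to 0.27, and the value was 0.075 after centring and 0.039 after quantile normalization, neither called. The 1:1 erbB2-negative fraction fell by -0.85 ± 0.22 (adjusted p = 0.00819), a call lost after centring (-0.41, adjusted p = 0.0808), after quantile normalization (-0.44, adjusted p = 0.0895) and without the replicate 1 array of that fraction (-0.57, adjusted p = 0.0504). The median difference of the 4985 genes highest in Comma-D was 1.05 in 1:50 erbB2-positive cells against MMTV-neu and 0.92 against 1:1 erbB2-positive cells.

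Igfbp3 was the only IGF axis gene that was higher in every other group than in Comma-D. Its product is the main carrier of IGFs in blood and can restrain growth. Igfbp3 (probe set 10384223) stood at 6.49, 6.62 and 6.35 in Comma-D and at 7.53, 7.71 and 7.42 in MMTV-neu. Its Comma-D mean exceeded 51.9% of genes, a middling level. The erbB2-positive arrays read 7.40, 8.36 and 7.78 at 1:50 and 7.50, 7.33 and 7.47 at 1:1. The erbB2-negative arrays read 7.93, 7.77 and 7.60 at 1:50 and 7.51, 7.54 and 7.48 at 1:1. Every array outside Comma-D lay above all 3 Comma-D arrays, and the other 5 groups overlapped their neighbours in the order of means. Against Comma-D, Igfbp3 rose 2.57-fold in the 1:50 erbB2-positive fraction (1.36 ± 0.17, adjusted p = 1.16e-04), 2.43-fold in the 1:50 erbB2-negative fraction (1.28 ± 0.17, adjusted p = 3.92e-04) and 2.09-fold in MMTV-neu (1.07 ± 0.17, adjusted p = 2.12e-05). At 1:1 the rise was 1.02 in erbB2-negative and 0.95 in erbB2-positive cells. All 5 differences kept their direction and call in every alternative tried, and centring widened that of MMTV-neu to 2.37. The step from 1:1 to 1:50 erbB2-positive cells was 0.41 ± 0.17 (adjusted p = 0.0401), with overlapping arrays. Centring turned it to -0.41, the replicate block over the 12 co-culture arrays gave an adjusted p of 0.0607, and without the 1:50 erbB2-positive replicate 2 it was 0.16 with an adjusted p of 0.317.

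The promoter of Igfbp3 is given as that of the member that moved against the ligands. It lies on the minus strand at chr11:7213874-7214173 (RefSeq, GRCm38.p6), and none of the 5 motifs was found in it in the exact letters searched. Variant letters, such as the TATATA in this sequence, were not searched.
Igfbp3: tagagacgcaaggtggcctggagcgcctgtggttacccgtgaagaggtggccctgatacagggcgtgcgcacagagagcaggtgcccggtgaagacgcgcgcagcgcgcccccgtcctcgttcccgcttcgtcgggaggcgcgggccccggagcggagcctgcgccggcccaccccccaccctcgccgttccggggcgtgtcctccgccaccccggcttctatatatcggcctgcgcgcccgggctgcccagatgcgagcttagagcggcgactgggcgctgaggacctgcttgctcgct

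Igfbp2 moved in the same direction as the ligands. Its product is a binding protein found in milk and in many body fluids. Igfbp2 (probe set 10347277) was at 9.70, 9.72 and 9.79 in Comma-D and 7.78, 8.25 and 8.20 in MMTV-neu. The erbB2-positive arrays gave 8.83, 8.57 and 8.46 at 1:50 and 8.32, 8.38 and 8.33 at 1:1. The erbB2-negative arrays gave 9.46, 8.59 and 8.46 at 1:50 and 9.12, 8.77 and 8.34 at 1:1. All arrays outside Comma-D were below the Comma-D arrays, with replicate 1 of each erbB2-negative fraction the closest. Against Comma-D it fell by -1.12 ± 0.22 in the 1:50 erbB2-positive fraction (adjusted p = 0.00565), and MMTV-neu differed by -1.66 ± 0.22 (adjusted p = 2.59e-06). The first was -0.86 with an adjusted p of 0.165 after centring and -0.84 with 0.127 after quantile normalization, and the second was -0.36 with 0.232 after centring. In the 1:1 erbB2-positive fraction the difference from Comma-D lost its call as well, with centred values at -0.31 (adjusted p = 0.308) and quantile-normalized ones at -0.57 (adjusted p = 0.0652). For the 1:1 erbB2-negative fraction it was -1.0 ± 0.22 (adjusted p = 0.00392), a call also lost after centring (-0.56, adjusted p = 0.0994) and quantile normalization (-0.55, adjusted p = 0.16). The 1:50 erbB2-negative difference of -0.90 ± 0.22 (adjusted p = 0.048) passed in only 10 of 27 alternatives, between -1.21 and -0.71. Leaving out any Comma-D array ended that call (adjusted p from 0.152 to 0.192), as did leaving out the 1:50 erbB2-negative replicate 2 (0.25) or replicate 3 (0.267). Its rise of 0.54 in the 1:50 erbB2-positive fraction over MMTV-neu (adjusted p = 0.0301) turned to -0.50 under centring and -0.02 under quantile normalization.

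Igfbp4, Igfbp5 and Igfbp7 had their lowest mean levels in MMTV-neu and the next lowest in the 1:1 erbB2-positive fraction. Igf2r, Igfbp2 and Igfbp6 had the same groups lowest. For Igfbp5 the 1:1 erbB2-negative mean was much the same as the erbB2-positive one, at 9.97 and 9.92. IGFBP-4 is known mainly as an inhibitor of IGF action, and IGFBP-5 is bound by extracellular matrix. Igfbp7 (probe set 10530841), whose product is also called angiomodulin and is often lost in tumours, had the widest range of all 10, at 5.17 log2 units between group means. It read 11.63, 11.72 and 11.60 in Comma-D and 6.56, 6.93 and 6.92 in MMTV-neu, where its mean exceeded 50.7% of genes. In erbB2-positive cells it read 11.49, 11.81 and 11.48 at 1:50 and 9.58, 10.31 and 10.42 at 1:1. In erbB2-negative cells it read 12.03, 12.12 and 11.77 at 1:50 and 11.37, 11.82 and 11.70 at 1:1. The 1:50 erbB2-positive arrays overlapped Comma-D, and the 1:1 erbB2-positive arrays lay apart from both lines. Igfbp7 was 28.8-fold lower in MMTV-neu than in Comma-D (-4.85 ± 0.19, adjusted p = 2.72e-12) and 27.6-fold higher in the 1:50 erbB2-positive fraction than in MMTV-neu (4.79 ± 0.19, adjusted p = 4.24e-12). Over 26 alternatives these ran from -4.91 to -3.55 and from 3.75 to 4.85. Between the 1:50 erbB2-positive fraction and Comma-D the difference was -0.06, with a 95% interval from -0.45 to 0.33, and 0.20 after centring and 0.077 after quantile normalization, neither called. The 1:1 erbB2-positive fraction was lower than Comma-D by -1.55 ± 0.19 (adjusted p = 1.91e-06), a value of -0.46 after centring, and lower than its erbB2-negative partner by -1.53 ± 0.19 (adjusted p = 3.1e-05). Basal markers moved alongside, with a summed level of 13.80 to 13.81 in Comma-D, 11.24 to 11.45 in MMTV-neu, 12.43 to 13.07 in the 1:1 erbB2-positive fraction and 13.97 to 14.47 in the 1:50 erbB2-positive fraction, and 12 to 14 of the 14 above the array median in each group. The fibroblast and stromal list had a like order in the same groups, at 13.53 to 13.59, 11.11 to 11.21, 11.67 to 12.24 and 13.14 to 13.64. Of single basal genes, Trp63 averaged 8.20, 7.97, 8.18 and 8.74 in these groups and Krt5 9.77, 7.71, 9.67 and 11.15. The part of either list in the Igfbp7 differences was not tested.

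The Igfbp7 promoter is shown because this gene had the widest range. It lies on the minus strand at chr5:77407996-77408295 (RefSeq, GRCm38.p6), with GC boxes at -110, -96, -74 and -44, the third of them on the other strand.
Igfbp7: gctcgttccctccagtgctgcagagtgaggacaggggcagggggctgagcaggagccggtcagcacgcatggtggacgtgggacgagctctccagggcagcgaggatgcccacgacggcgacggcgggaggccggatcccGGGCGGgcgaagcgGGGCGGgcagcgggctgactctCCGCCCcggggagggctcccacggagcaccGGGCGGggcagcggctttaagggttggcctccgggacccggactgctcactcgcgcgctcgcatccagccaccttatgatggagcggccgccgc

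Igfbp4 (probe set 10381096) was read at 11.29, 11.18 and 11.23 in Comma-D and 7.95, 8.23 and 7.80 in MMTV-neu. In erbB2-positive cells it was 11.26, 10.54 and 10.16 at 1:50 and 9.88, 8.87 and 8.60 at 1:1. In erbB2-negative cells it was 11.65, 10.62 and 10.23 at 1:50 and 11.45, 10.64 and 10.30 at 1:1. Replicate 1 was the highest array and replicate 3 the lowest in each of the 4 fractions, and these fractions had SDs of 0.56 to 0.73 against 0.06 in Comma-D. MMTV-neu was 9.46-fold below Comma-D (-3.24 ± 0.37, adjusted p = 6.04e-07), and the 1:50 erbB2-positive fraction was 6.34-fold above MMTV-neu (2.66 ± 0.37, adjusted p = 8.26e-06). Both calls held in all 26 alternatives, with values from -3.36 to -1.94 and from 1.63 to 2.91, the smallest in each case after centring. The 1:1 erbB2-positive fraction was below its negative partner by -1.68 ± 0.37 (adjusted p = 0.00204), with an adjusted p of 0.0578 after quantile normalization. The 1:50 erbB2-positive fraction exceeded the 1:1 erbB2-positive fraction by 1.54 ± 0.37 (adjusted p = 0.00179), a call lost after centring (0.72, adjusted p = 0.116) and quantile normalization (0.86, adjusted p = 0.109). Its difference from Comma-D in the 1:50 erbB2-positive fraction was -0.58, with a 95% interval from -1.37 to 0.21.

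Igfbp5 (probe set 10355500) measured 11.45, 11.36 and 11.46 in Comma-D and 9.34, 9.34 and 9.28 in MMTV-neu. In erbB2-positive cells it was 10.38, 11.30 and 10.50 at 1:50 and 9.71, 10.05 and 10.01 at 1:1. In erbB2-negative cells it was 10.59, 11.22 and 10.34 at 1:50 and 9.27, 10.22 and 10.41 at 1:1. No co-culture array reached the Comma-D arrays, although replicate 2 of both 1:50 fractions came close. MMTV-neu was 4.29-fold below Comma-D (-2.10 ± 0.27, adjusted p = 2.01e-06), and the difference was -0.80 after centring and -1.04 after quantile normalization, still called. In the 1:1 erbB2-positive fraction the call against Comma-D was lost after centring (-0.41, adjusted p = 0.0985). The 1:1 erbB2-negative fraction also fell below Comma-D, by -1.45 ± 0.27 (adjusted p = 0.00136), and this held in all 27 alternatives, from -1.68 to -1.01. The 1:50 erbB2-positive fraction exceeded MMTV-neu by 1.41 ± 0.27 (adjusted p = 1.62e-04), a value of 0.37 with an adjusted p of 0.134 after centring. Its difference of -0.69 ± 0.27 from Comma-D missed the threshold (adjusted p = 0.145), though it passed without the 1:50 erbB2-positive replicate 2 (-0.98, adjusted p = 0.0371) and without the 1:1 erbB2-negative replicate 1 (adjusted p = 0.0416). The fractions of the 1:1 co-culture differed by -0.04, with an interval from -0.62 to 0.53, whereas centring gave a called difference of 0.60 (adjusted p = 0.0213), higher in erbB2-positive cells.

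Igfbp6, whose product prefers IGF-II over IGF-I, had the narrowest range of group means among the binding proteins, 0.84 log2 units. Its probe set 10427125 read 8.29, 8.23 and 8.15 in Comma-D and 7.66, 7.60 and 7.64 in MMTV-neu. In erbB2-positive cells it read 8.09, 7.89 and 8.25 at 1:50 and 7.59, 7.50 and 7.97 at 1:1, and in erbB2-negative cells 8.49, 8.21 and 8.70 at 1:50 and 8.24, 8.20 and 8.44 at 1:1. The erbB2-negative arrays of both ratios overlapped Comma-D, and the 1:1 erbB2-positive arrays overlapped MMTV-neu. MMTV-neu was -0.59 ± 0.14 below Comma-D (adjusted p = 7.55e-04) on the deposited scale, -0.08 with an adjusted p of 0.651 under quantile normalization, and 0.71 in the opposite direction under centring. The 1:1 erbB2-positive fraction was -0.61 ± 0.14 below its erbB2-negative partner (adjusted p = 0.00226), a value of 0.04 under centring.

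**Figure D2:**
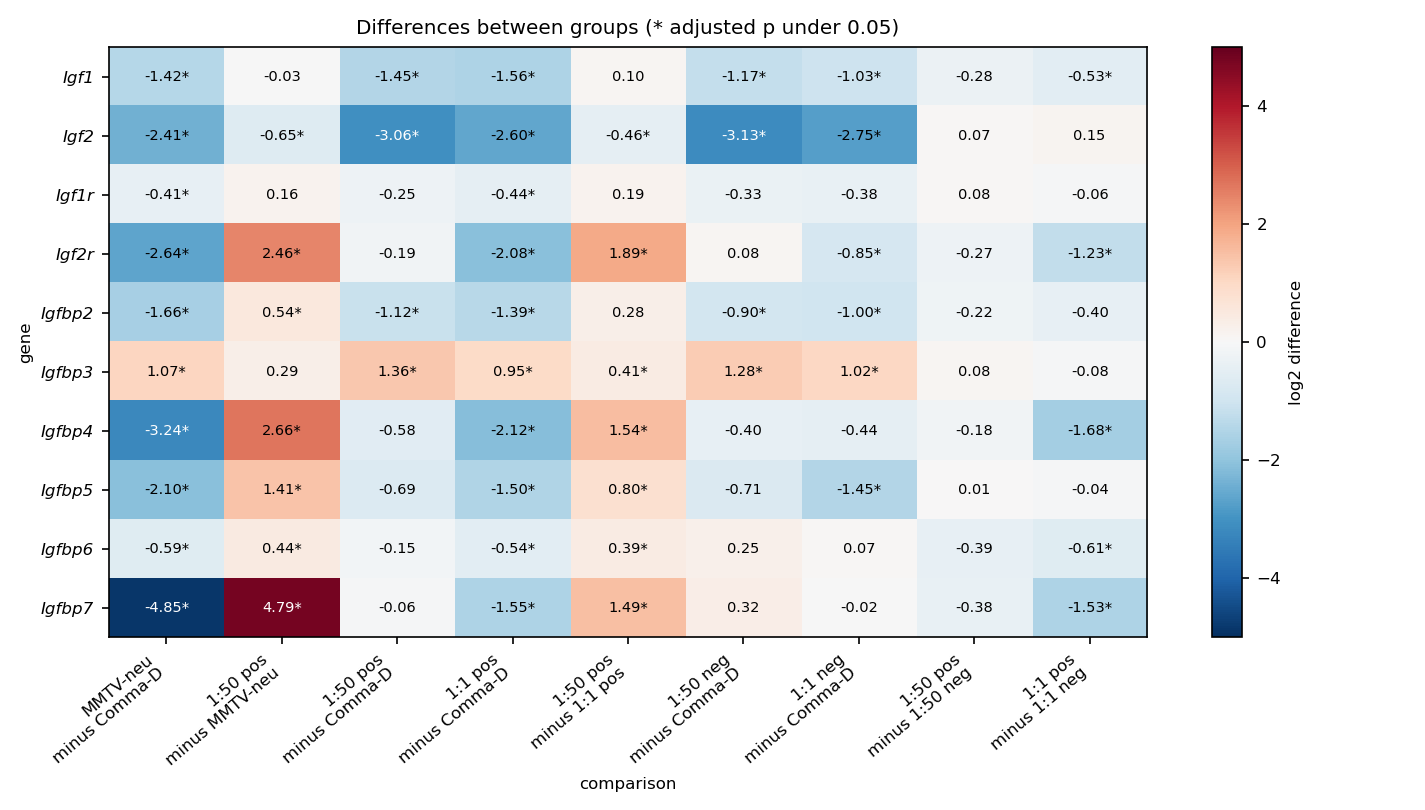
Log2 difference of each IGF axis gene (rows) in 9 comparisons (columns), with colour for size and direction and an asterisk where the limma adjusted p is under 0.05. Igf1, Igf2, Igfbp2 and Igfbp3 carry asterisks in all 5 columns against Comma-D, and the column of 1:50 erbB2-positive minus 1:50 erbB2-negative cells carries none.

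Counted by comparison, Igf1, Igf2, Igfbp2 and Igfbp3 were the members called in both 1:50 fractions against Comma-D, where few genes of the array were called. In the 1:50 erbB2-positive fraction against Comma-D, 5.71% of the 19938 genes were called, 1.17% higher and 4.54% lower. Of the 10 IGF genes, 4 were called there, Igfbp3 higher and Igf1, Igf2 and Igfbp2 lower. In the 1:50 erbB2-negative fraction against Comma-D, 1.68% of genes were called, 0.592% higher and 1.08% lower, and 4 of the 10 were called in the same directions. Centring and quantile normalization each left 3 of the 4 in both comparisons, without Igfbp2. Both comparisons use the same Comma-D arrays, so they are not independent of each other. With array weights 7 of the 10 were called in the 1:50 erbB2-positive comparison, beside 8970 of the 19938 genes.

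The other comparisons with Comma-D called large parts of the array. MMTV-neu against Comma-D called 86.8% of genes, 56.4% higher and 30.4% lower, and all 10 IGF genes, 1 higher and 9 lower. After centring 3 were higher (Igf1r, Igfbp3 and Igfbp6) and 5 lower, with Igf1 and Igfbp2 no longer called, and after quantile normalization 2 were higher and 7 lower. The 1:1 erbB2-positive fraction against Comma-D called 78.3% of genes, 45.8% higher and 32.5% lower, and again all 10, with 1 higher and 9 lower. Here too 3 were higher (Igf1r, Igfbp3 and Igfbp6) and 5 lower after centring, with Igfbp2 and Igfbp5 no longer called, and 2 were higher and 6 lower after quantile normalization. The 1:1 erbB2-negative fraction against Comma-D called 35.7% of genes, 14.9% higher and 20.9% lower, and 6 of the 10, with Igfbp3 higher and Igf1, Igf2, Igf2r, Igfbp2 and Igfbp5 lower. Centring gave 2 higher, with Igfbp6 added at 0.51 (adjusted p = 0.0263), and 3 lower, without Igf2r and Igfbp2. The median difference of the 10 genes was -1.88 in MMTV-neu and -1.52 in the 1:1 erbB2-positive fraction, beside 0.40 and 0.19 over all genes. For the 4985 genes highest in Comma-D the medians were -1.37 and -1.23. A share of members near the share of all genes is no result about the axis.

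**Figure D3:**
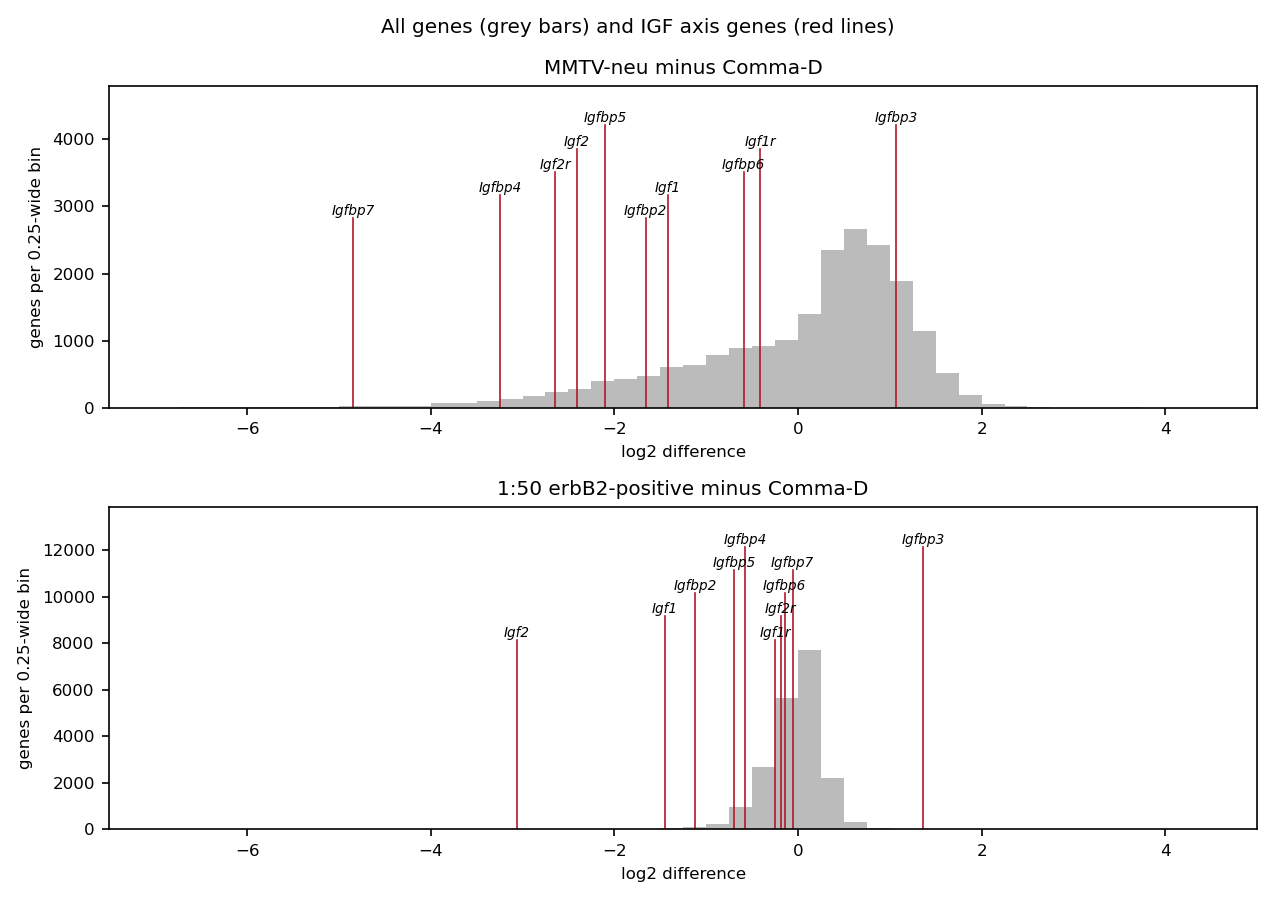
Number of genes (grey bars) by log2 difference in bins 0.25 wide, with the IGF axis genes as red lines, for MMTV-neu minus Comma-D (top) and 1:50 erbB2-positive minus Comma-D (bottom). In the lower panel Igf2 at -3.06, Igf1 at -1.45 and Igfbp3 at 1.36 lie far from the bulk of genes, while in the upper panel the bulk is itself spread widely.

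Between the 1:50 erbB2-positive fraction and MMTV-neu, 83.4% of genes were called, 25.8% higher and 57.6% lower. Of the 10 IGF genes, 6 were higher in the fraction (Igf2r, Igfbp2, Igfbp4, Igfbp5, Igfbp6 and Igfbp7) and Igf2 was lower. Centring turned Igfbp2 and Igfbp6 to -0.50 and -0.59, and called Igf1, Igf1r and Igfbp3 lower, at -1.07, -0.88 and -0.74, so that 3 were called higher and 5 lower. Between the 2 erbB2-positive fractions, 71.4% of genes were called, 27.4% higher at 1:50 and 44% lower. Here the called genes were Igf2r, Igfbp3, Igfbp4, Igfbp5, Igfbp6 and Igfbp7, which were higher at 1:50, and Igf2, which was lower (-0.46 ± 0.14, adjusted p = 0.00787). Centring turned Igfbp3, Igfbp5 and Igfbp6, to -0.41, -0.02 and -0.43, and called Igf1 and Igf1r lower at 1:50, at -0.72 and -0.63, which left 2 higher and 4 lower. Without the 1:1 erbB2-positive replicate 1 the count of 7 fell to 4, and the calls of Igfbp3, Igfbp5 and Igfbp6 were lost.

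Within the 1:50 co-culture no IGF axis gene passed the test between the sorted fractions. Of all genes 0.01% (2 genes) passed the test, 0.01% on the higher side and 0% on the lower, and none of the 10 was among them. At an unadjusted p under 0.05 there was 1 member, Igfbp6. The largest differences between erbB2-positive and erbB2-negative cells were -0.39 for Igfbp6 (95% interval from -0.68 to -0.10, adjusted p = 0.286) and -0.38 for Igfbp7 (from -0.77 to 0.01, adjusted p = 0.384). By replicate pair, 5 members were lower in erbB2-positive cells in all 3 pairs, Igf1, Igf2r, Igfbp4, Igfbp6 and Igfbp7. The pairs differed by -0.40, -0.32 and -0.45 for Igfbp6 and by -0.54, -0.31 and -0.29 for Igfbp7. With the replicate number as a block the limma adjusted p was 0.126 for Igfbp6 and 0.213 for Igfbp7, and in the co-culture arrays alone 0.0709 and 0.193, so that none was called there either. With array weights, whose estimation stopped before it converged, 4 of the 10 were called lower, but 7024 of the 19938 genes were called as well. Within the 1:1 co-culture 56.1% of genes passed the test, 35.2% with a higher level in erbB2-positive cells and 21% with a lower one. Of the 10 genes, 5 were lower there (Igf1, Igf2r, Igfbp4, Igfbp6 and Igfbp7) and none was higher. The median difference at 1:1 was -0.67 for the 4985 genes highest in Comma-D and 0.16 over all genes. Centring turned Igf1 and Igfbp6 to 0.11 and 0.04 and left Igf2r, Igfbp4 and Igfbp7 lower. It also called 4 members higher in erbB2-positive cells, Igf2 at 0.79 (adjusted p = 0.00154), Igf1r at 0.59, Igfbp3 at 0.57 and Igfbp5 at 0.60. By replicate pair, 7 members were lower in all 3 pairs at 1:1 and Igf2 was higher in all 3.

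Whether the gap between sorted fractions depends on the ratio was tested as an interaction, the erbB2-positive minus erbB2-negative difference at 1:50 minus that at 1:1. It called 2.75% of genes, 2.45% higher and 0.301% lower. The 4985 genes highest in Comma-D, with Igf2r, Igfbp4 and Igfbp7 among them, had a median interaction of 0.38, beside -0.16 over all genes. Without a replicate block Igfbp7 was the member called, at 1.15 ± 0.26 (adjusted p = 0.0306), from gaps of -0.38 at 1:50 and -1.53 at 1:1. With the replicate number as a block over all 18 arrays, 3 members were called, Igfbp7 (adjusted p = 0.00686), Igfbp4 at 1.5 (adjusted p = 0.0149) and Igf2r at 0.96 (adjusted p = 0.0391). The block in the co-culture arrays alone also called 3, with a limma adjusted p of 0.00171 for Igfbp4 and 0.0228 for Igf2r. The Igfbp7 call held in 18 of 28 alternatives, with values from 0.73 to 1.30 and an adjusted p of up to 0.109. It was lost after centring (0.73, adjusted p = 0.0986), after quantile normalization (0.76, adjusted p = 0.0581), in a fit of the compared groups only, and without replicate 2 or 3 of either erbB2-negative fraction or of the 1:50 erbB2-positive fraction (adjusted p from 0.0505 to 0.109) or without replicate 1 of the 1:1 erbB2-positive fraction (adjusted p = 0.0608).

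**Figure D4:**
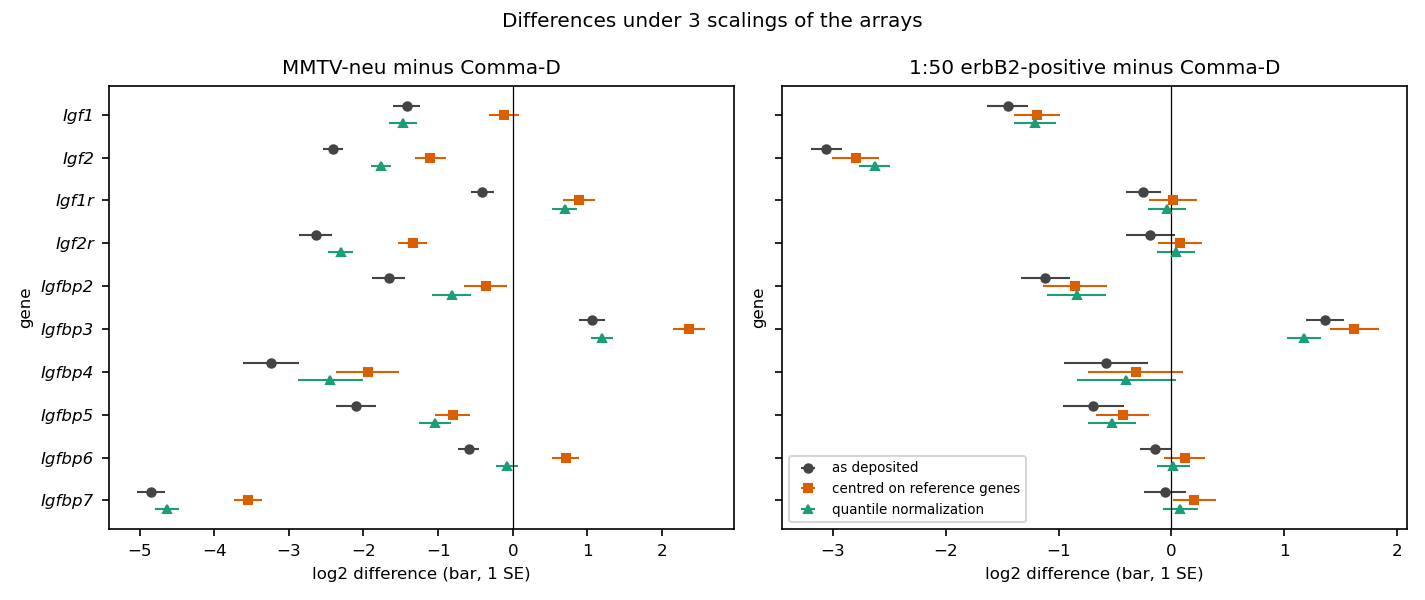
Log2 differences with their SE (bars) for MMTV-neu minus Comma-D (left) and 1:50 erbB2-positive minus Comma-D (right) as deposited, centred on reference genes and after quantile normalization. On the left Igf1r and Igfbp6 cross zero under centring, to 0.89 and 0.71, while on the right Igf1, Igf2, Igfbp2 and Igfbp3 stay on their side under all 3 scalings.

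The co-culture arrays of equal replicate number moved together. Igfbp4 followed replicate number in all 4 fractions, as described above. Igf2r was highest in replicate 2, Igfbp6 highest in replicate 3 and lowest in replicate 2, Igf2 lowest in replicate 2 and Igf1r lowest in replicate 3, in each of the 4 fractions. Mean deviations from the fraction means were 0.71, -0.18 and -0.53 for Igfbp4 in replicates 1, 2 and 3 and -0.29, 0.30 and -0.01 for Igf2r. These genes were singled out after their values were seen.

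**Figure D5:**
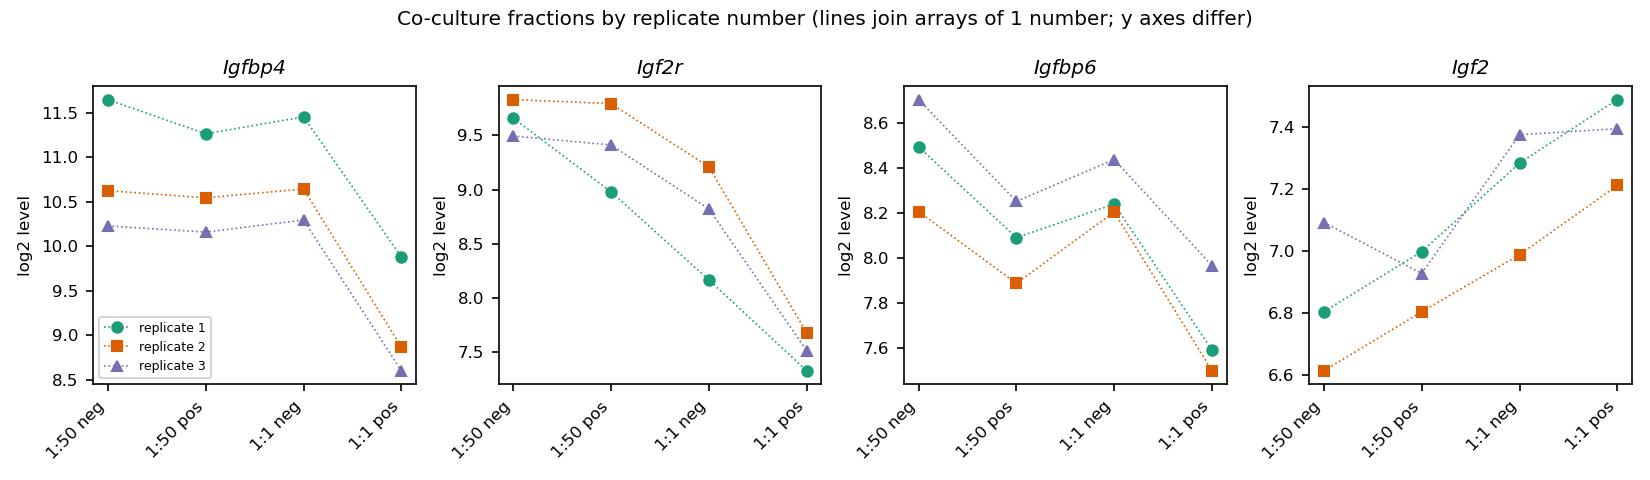
Log2 levels of Igfbp4, Igf2r, Igfbp6 and Igf2 in the 4 co-culture fractions, with dotted lines joining arrays of equal replicate number and separate vertical scales. For Igfbp4, replicate 1 is highest and replicate 3 lowest in each fraction, from 11.65 and 10.23 in 1:50 erbB2-negative cells to 9.88 and 8.60 in 1:1 erbB2-positive cells.

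Among 40 other measured genes of IGF and insulin signalling, the largest difference between the 1:50 fractions and Comma-D was in Ghr. Ghr encodes the growth hormone receptor, which drives Igf1 transcription in liver. It averaged 11.28 in Comma-D, 9.08 and 9.48 in the 1:50 erbB2-positive and erbB2-negative fractions, 6.95 and 8.64 in those of the 1:1 co-culture and 6.32 in MMTV-neu. Against Comma-D, 1 of the 40 rose and 8 fell in the 1:50 erbB2-positive fraction, 22.5% of them beside 5.71% of all genes. In the 1:50 erbB2-negative fraction 1 rose and 3 fell, 10% beside 1.68%. After centring these counts were 1 and 2 in both fractions, beside 218 and 134 of the 19938 genes. After quantile normalization they were 1 and 3 in the first and 0 and 3 in the second, beside 406 and 188 genes. In the 1:50 erbB2-positive comparison, leaving out Comma-D replicate 1, 2 or 3 left 4, 4 and 3 that fell, leaving out replicate 1 or 3 of that fraction left 3, and leaving out its replicate 2 gave 11 and the 1:1 erbB2-negative replicate 1 gave 12. Ghr changed by -2.20 ± 0.18 (adjusted p = 8.38e-07) and -1.80 ± 0.18 (adjusted p = 1.84e-05). Grb14, an adaptor that restrains the insulin receptor, changed by -1.63 ± 0.22 and -1.36 ± 0.22 (adjusted p = 2.57e-04 and 0.00266). Adam12, a metalloprotease that can cleave IGFBP-3 and IGFBP-5, was the one that rose, by 1.19 ± 0.30 and 1.28 ± 0.30 (adjusted p = 0.0276 and 0.0388). No pathway gene was called higher in either comparison without any one Comma-D array. The same held in the first without replicate 2 or 3 of its erbB2-positive fraction, and in the second without replicate 1 or 2 of its erbB2-negative fraction, without any one MMTV-neu or 1:1 erbB2-positive array, without all 3 MMTV-neu arrays or after quantile normalization. Stc1, a stanniocalcin, fell in the 1:50 erbB2-negative fraction (-0.92 ± 0.15), and Shc1, an adaptor downstream of the receptor, fell in the 1:50 erbB2-positive fraction (-0.88 ± 0.21).

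For the other comparisons, the share of the 40 pathway genes called is given beside that of all genes. Between MMTV-neu and Comma-D 14 of the 40 were higher and 21 lower, 87.5% beside 86.8%, but 21 higher and 12 lower after centring. Htra1, a secreted protease that cleaves binding proteins, differed most, at 11.82 in Comma-D and 6.81 in MMTV-neu (-5.0 ± 0.15, adjusted p = 1.73e-13). Against MMTV-neu the 1:50 erbB2-positive fraction had 20 higher and 14 lower, 85% beside 83.4%, but 13 higher and 22 lower after centring. On the deposited scale Htra1 was at 4.32 and Pik3r1, the regulatory subunit of PI3 kinase, at 3.1. The 1:1 erbB2-positive fraction against Comma-D had 12 higher and 23 lower, 87.5% beside 78.3%, but 20 higher and 13 lower after centring. Among the lower ones on the deposited scale was Insr, the insulin receptor, at -2.63. The 1:1 erbB2-negative fraction against Comma-D had 3 higher and 20 lower, 57.5% beside 35.7%, with Ghr at -2.64 and Insr at -1.41. After centring 11 were higher and 9 lower. After quantile normalization none was higher and 6 were lower, beside 3115 of the 19938 genes called. Between the erbB2-positive fractions 21 were higher at 1:50 and 13 lower, 85% beside 71.4%, and after centring 13 higher and 19 lower. Within the 1:1 co-culture 11 were higher and 18 lower in erbB2-positive cells, 72.5% beside 56.1%, and after centring 19 higher and 11 lower. In the order given so far, centring called 17997, 17877, 17177, 10259, 16736 and 16149 of the 19938 genes. Within the 1:50 co-culture none was called, beside 0.01% of all genes, whereas array weights called 3 higher and 14 lower, beside 7024 of the 19938 genes. The interaction called 6 of the 40, 15% beside 2.75%, all higher and led by Htra1 (1.51, adjusted p = 0.00298). It called none after centring and 11 with the replicate block, beside 2 and 1288 of the 19938 genes. Without replicate 1 of the 1:1 erbB2-negative fraction it called 13 higher and 4 lower (5303 of all genes), and without replicate 1 of the 1:50 erbB2-positive fraction 10 and 1 (1498 of all genes). Leaving out replicate 2 of either of these fractions left 2 (115 and 125 of all genes), and leaving out the 1:50 erbB2-negative replicate 3 left 3 (128 of all genes).

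The genes with the most similar profiles over the 18 arrays differed from member to member. The 18 arrays share 6 group means and the differences in spread given above, so these correlations are a description. For Igf1 the closest were Hbegf (r = 0.940), a heparin-binding EGF-like growth factor, Dhrs9 (0.932) and Angpt1 (0.898), and 2 genes exceeded 0.9. For Igf2 they were Nat8f5 (0.978), Gzmb (0.977) and Dcn (0.977), with 27 genes over 0.9. Igfbp2 was closest to Apobec1 (0.956), C1s1 (0.953) and Pdgfra (0.95). Igf2r and Igfbp7 had 3320 and 691 genes over 0.9, led by Mau2 (0.993) and Nedd4 (0.995). Sparc, a secreted matrix protein, was also among the closest to Igfbp7 (0.994). Igf1r and Igfbp3 had none over 0.9, the closest being Igsf10 (0.833) and Rgs12 (0.845). For Igfbp4 the closest was Thbs2 (0.965), for Igfbp5 Enpp3 (0.946) and for Igfbp6 Arhgdib (0.927).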

How the data were processed

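RNA levels were measured on 18 mouse whole-transcript arrays. The deposited log2 values hold 35556 probe sets, and per the submitters' processing notes RMA, R 3.1.2 and limma were used; its settings are not stated there. Probe sets naming several genes (1621) or without annotation (12146) were left out, and each of 19938 genes was read by its single-gene probe set with the highest mean. No filter on low values was applied. No scanner file was analysed here, so the number of arrays sets the precision.

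Group differences came from limma 3.58.1 (R 4.3.3; lmFit, then eBayes; tested on simulated data) over all 18 arrays, with 12 residual degrees of freedom and two-sided tests. Adjusted p-values follow Benjamini-Hochberg over the 19938 genes, and a gene counts as called below 0.05. Values after ± are SE for differences. The summed level of a marker list is the log2 of its summed linear values.

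The members and lists were chosen with earlier results of these data known. Named besides the members are the 4 pathway genes with the largest called differences per comparison, the 3 closest profiles per member, Erbb2 and markers. Alternatives were scaling, gene filter, probe set mean, priors, array weights, replicate block, groups fitted and leaving out single arrays. Added after seeing the data were a block in the co-culture arrays alone and a fit without MMTV-neu. Replicate numbers come from the titles. Deviations of same-numbered arrays correlated at over 0.1 for all 3 numbers in 5 of the 6 pairs of co-culture fractions. The exception was 1:50 erbB2-negative with 1:1 erbB2-positive cells (0.07 for replicate 2). The numbers were therefore taken to pair fractions, not the unmixed lines. The main fit used group only, so its p-values leave this pairing out, and the replicate block is given as an alternative.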

Additional observations from a re-analysis of the deposited data

Results flagged for a closer look

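On the deposited scale the erbB2-positive minus erbB2-negative difference of Igfbp7 was called unequal between the co-culture ratios, by a test of the difference itself. It was -0.38 at 1:50 and -1.53 at 1:1, so the interaction was 1.15 ± 0.26 (SE, limma adjusted p = 0.0306). The 4985 genes highest in Comma-D, which include Igfbp7, moved the same way. Their medians were -0.26 at 1:50, -0.67 at 1:1 and 0.38 for the interaction, and 91.3% of them had a lower interaction than Igfbp7. The erbB2-positive array was the lower one in all 3 replicate pairs at both ratios, by -0.54, -0.31 and -0.29 at 1:50 and by -1.78, -1.51 and -1.29 at 1:1. The call passed in 18 of 28 alternatives, with an adjusted p from 8.67e-07 to 0.109.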

How the results depend on the processing

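Of 2720 values under alternatives, 2516 kept direction and call, 72 lost a call, 34 gained one, 23 reversed and 75 changed sign with no call before or after. Leaving out the lowest 40% of genes, averaging probe sets, and trend and robust priors changed no member's call; the cause of the changes below was not tested. Centring on reference genes reversed Igf1r (0.89 in MMTV-neu and 0.65 in 1:1 erbB2-positive cells against Comma-D, -0.88 in 1:50 erbB2-positive cells against MMTV-neu, -0.63 against 1:1 erbB2-positive cells, 0.59 between 1:1 fractions), Igfbp6 (in the same order 0.71, 0.55, -0.59, -0.43 and 0.035) and Igfbp3 (-0.74 against MMTV-neu, -0.41 between erbB2-positive fractions, 0.57 between 1:1 fractions). It also reversed Igf1 (-0.72) and Igfbp5 (-0.018) between erbB2-positive fractions and Igf1 (0.11) and Igfbp5 (0.60) between 1:1 fractions, and Igfbp2 in 1:50 erbB2-positive cells against MMTV-neu (-0.50). Quantile normalization reversed Igf1r in the first 4 comparisons (0.70, 0.43, -0.74 and -0.47) and Igfbp2 against MMTV-neu (-0.024). The members called in the interaction numbered 1, but 0 after centring and with the compared groups only and 0 to 2 when single arrays were left out. With array weights they numbered 5, beside 13911 of the 19938 genes. The number of members called between erbB2-positive fractions was 7, but 4 after quantile normalization, 3 at a fold of at least 2 and 4 to 7 when arrays were left out. Array weights called 7 against Comma-D in 1:50 erbB2-positive cells, 4 between 1:50 fractions and 8 between 1:1 fractions. Beside these, 8970, 7024 and 16899 of the 19938 genes were called. A fold of at least 2 left 4 in 1:50 erbB2-positive cells against MMTV-neu and 3 between 1:1 fractions. With the replicate block the interaction called 3 members, as did the block in co-culture arrays only, which also ended the Igfbp3 call between erbB2-positive fractions; the block changed no other call of a member. Background correction and a slide block could not be run, since no scanner file was analysed here.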
